A study of Mus musculus with 12 samples.

Results

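The 4 fatty acid binding protein genes Fabp1, Fabp2, Fabp4 and Fabp5 and the fatty acid transporter gene Cd36 were followed in mouse liver RNA. They were taken by symbol from 6 pairwise tables of read counts, and all 5 were found among 26031 genes with counts in any library. RNA came from livers of C57BL/6N mice, 3 samples in each of 4 groups. The PCN group had a high-fat diet and the steroid PCN at 50 mg/kg, and the vehicle group had the same diet and 30% DMSO; both were injected into the abdominal cavity once daily for 4 days. The HFD group had the high-fat diet and no injection, and the chow group had regular chow and no injection. Mice were 6 weeks old when the diets began and stayed on them for 15 weeks. PCN, pregnenolone 16α-carbonitrile, activates the rodent pregnane X receptor, which switches on genes of drug metabolism. The labels state no sex and do not say outright that each sample is a separate animal, so p-values measure the spread between these samples.

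Long-chain fatty acids dissolve poorly in water, so cells move them with proteins. CD36 sits in the plasma membrane and helps fatty acids to enter, and the fatty acid binding proteins carry them through the cytosol to mitochondria, lipid droplets and the nucleus. Fabp1 encodes the form that is abundant in hepatocytes and enterocytes, Fabp2 the form known from enterocytes, Fabp4 the form of adipocytes, macrophages and some endothelial cells, and Fabp5 a form found in skin, macrophages and many other cells. Fabp1 is a known target of the receptor PPARα, Fabp4 is a known target of PPARγ, and Cd36 in mouse liver is a known target of PPARγ, the liver X receptor and the pregnane X receptor.

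In the files' build, GRCm38, Fabp1 (ENSMUSG00000054422) lies at chr6:71199827-71205023 on the plus strand. Fabp2 (ENSMUSG00000023057) lies at chr3:122895072-122899506, also on the plus strand. Fabp5 (ENSMUSG00000027533), at chr3:10012548-10016607 on the plus strand, and Fabp4 (ENSMUSG00000062515), at chr3:10204088-10208576 on the minus strand, are neighbours 187480 bases apart, with family members Pmp2 and Fabp9 between them. Cd36 (ENSMUSG00000002944) spans 107112 bases at chr5:17781690-17888801 on the minus strand. Of the 50-base stretches in the transcripts of Fabp5, 5.48% also occur in other annotated genes, among them Gm6166 and Fabp5l2, so its counts may be split; the other 4 genes share none.

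Promoter windows from 250 bases before to 50 bases after the RefSeq start (GRCm38.p6) were at hand for Fabp1, Fabp2 and Cd36. They are shown because PPARs with their partner RXR bind a direct repeat, here searched on both strands as AGGNCA, 1 free base and AGGNCA again, and related receptors bind its unit AGGTCA. Capitals mark matches to the repeat or the unit, all of them on the strand opposite to the gene. The windows are chr6:71199629-71199928 (plus strand), chr3:122894822-122895121 (plus strand) and chr5:17835847-17836146 (minus strand).
Fabp1 promoter: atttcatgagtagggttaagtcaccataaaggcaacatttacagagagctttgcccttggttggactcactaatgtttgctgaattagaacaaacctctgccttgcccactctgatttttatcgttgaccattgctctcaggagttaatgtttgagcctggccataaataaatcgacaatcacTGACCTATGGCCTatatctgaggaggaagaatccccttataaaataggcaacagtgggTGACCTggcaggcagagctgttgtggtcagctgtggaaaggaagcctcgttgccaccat
Fabp2 promoter: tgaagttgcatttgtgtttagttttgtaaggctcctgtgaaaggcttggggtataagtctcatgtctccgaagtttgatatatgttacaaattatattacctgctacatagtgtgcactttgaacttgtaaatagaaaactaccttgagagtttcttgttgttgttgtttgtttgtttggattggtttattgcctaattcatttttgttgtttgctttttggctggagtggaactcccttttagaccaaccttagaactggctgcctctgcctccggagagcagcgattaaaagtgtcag
Cd36 promoter: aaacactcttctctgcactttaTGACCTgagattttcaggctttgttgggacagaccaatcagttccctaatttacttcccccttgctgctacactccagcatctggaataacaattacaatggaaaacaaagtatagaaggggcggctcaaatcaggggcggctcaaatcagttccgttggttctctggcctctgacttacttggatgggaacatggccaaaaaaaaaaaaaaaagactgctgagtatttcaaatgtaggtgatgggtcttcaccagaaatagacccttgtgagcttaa
The Fabp1 window held the direct repeat at -67 to -55 from the start, overlapping a unit at -67 to -62, and a further unit at -9 to -4. It also held TATAAA on the gene's strand at -30 to -25. A PPAR response element is known from the rat Fabp1 promoter. Cd36 held 1 unit, at -228 to -223, and the Fabp2 window held neither motif; the RefSeq starts of Cd36 and Fabp1 both lie inside the GENCODE genes as given above. In Fabp1 the direct repeat lies before the GENCODE start, and TATAAA and the unit at -9 to -4 lie within the GENCODE gene. Over 32851 mouse promoter windows of this length, 0.381% held the direct repeat, 16.3% the unit and 8.32% TATAAA on the gene's strand. A match is a stretch of letters and not a measured binding site.

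The table of the vehicle and HFD groups gave values for 26015 genes, and its 6 libraries held 7468102 to 38167000 counts. The other 5 tables gave values only for genes that the authors called. Fabp1, Fabp2, Fabp4 and Cd36 had counts in all 12 libraries through 1 table or another, and Fabp5 only in the vehicle and HFD libraries. A member had PCN or chow counts only because the authors called it in a comparison with that group. For the same reason, no share over all genes can be given where PCN or chow libraries did not overlap others. Fabp5 was called in none of the 6 comparisons. Hepatocyte markers such as Alb and Ttr were high in every library. Among the 6 complete libraries, vehicle replicate 55 stood apart on the first principal component (60.8, the others -28.3 to 16.2) and HFD replicate 38, the shallowest, on the second (50.9, the others -35.6 to 15.8). Values below are normalized read counts, which are counts divided by the library's size factor, and a fold is the ratio of group means. The comparisons share groups with each other, so their values are not independent. A gene rose or fell where the authors' deposited DESeq2 adjusted p was under 0.05. For vehicle against HFD the test was edgeR's quasi-likelihood test, with the deposited call beside it. An exact permutation test of 3 libraries against 3 cannot give a p below 0.10. In whole liver, fewer cells of a type and less RNA per cell cannot be told apart.

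**Figure D1:**
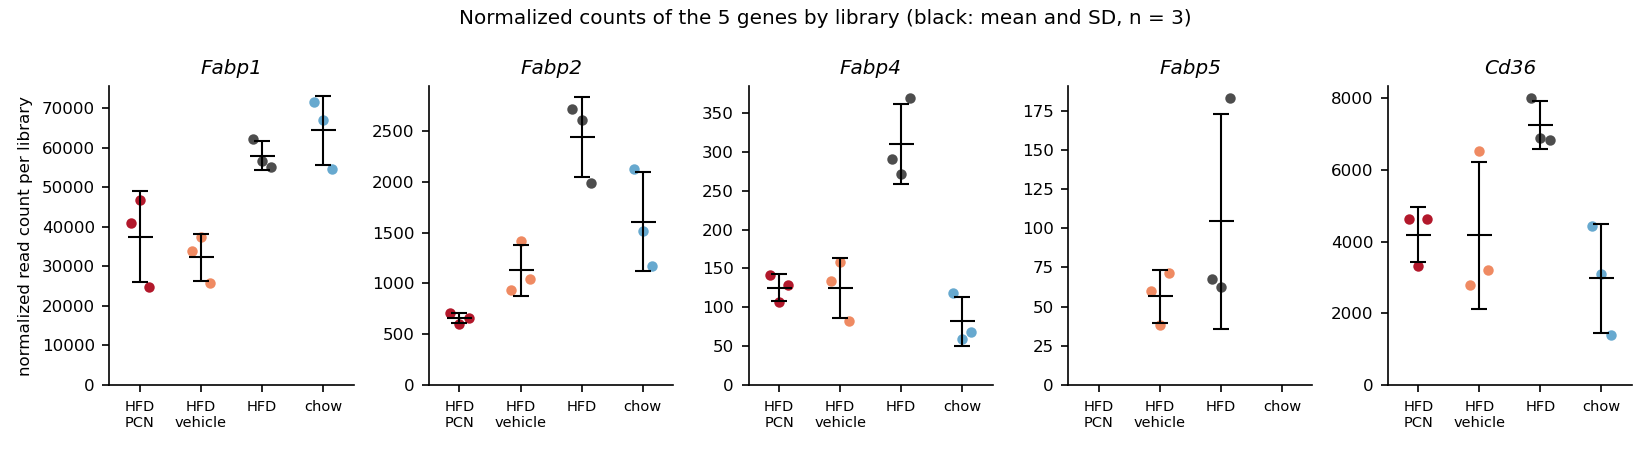
Normalized read counts of the 5 genes in each library (points) with the group mean and SD (black, n = 3), for the PCN, vehicle, HFD and chow groups. For Fabp1 all 6 injected libraries lie below all 6 uninjected ones, for Fabp4 the HFD libraries lie above all others, and Fabp5 has counts in the vehicle and HFD groups only.

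Fabp1, the hepatocyte carrier, was lower in the injected groups than in the uninjected ones. PCN libraries had 40924, 46787 and 24730 normalized counts and vehicle libraries 33804, 37299 and 25776. HFD libraries had 62182, 56642 and 55049 normalized counts and chow libraries 71470, 67014 and 54542. The highest of the 6 injected libraries was below the lowest of the 6 uninjected ones, while the injected groups overlapped each other, as did the uninjected groups. How many of all genes show this separation is not known. Means were 37480.5 ± 11425 in PCN, 32293 ± 5908 in vehicle, 57958 ± 3744 in HFD and 64342 ± 8775 in chow (SD, n = 3 each).

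In the authors' deposited table of vehicle against chow, Fabp1 fell, 1.99-fold by group means (DESeq2 adjusted p = 1.5e-05). It was the only 1 of the 5 members that the table called, where 1.38% of all tested genes and 2.5% of genes kept by an expression filter were called lower. Between PCN and chow it also fell, 1.72-fold, in the authors' deposited table (DESeq2 adjusted p = 0.006704). Fabp1 and Fabp2 were the 2 members called there, where 3.67% of all tested genes and 6.55% of genes kept by the filter were called lower. edgeR on the listed counts did not call either difference (adjusted p = 0.130 for vehicle against chow and 0.267 for PCN against chow). Between vehicle and HFD the level was 1.79-fold lower in vehicle (edgeR log2 -0.85, SE 0.20, adjusted p = 0.215), which the authors' deposited table called (DESeq2 adjusted p = 0.001349). Between PCN and HFD it was 1.55-fold lower in PCN, with no overlap of libraries, and the table of that comparison did not list it.

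Some other genes typical of hepatocytes were, like Fabp1, lower in PCN than in chow livers. Against chow 4 of 6 hepatocyte markers fell in the authors' deposited table. There 3.67% of all tested genes and 6.55% of genes kept by the filter were called lower. Tat was 2.55-fold, Alb 2.15-fold, Ttr 1.72-fold and Cps1 1.68-fold lower in PCN, and edgeR called 0 of the 4. Against HFD Ttr fell 1.86-fold and Serpina1a, which has near-identical copies, rose 1.58-fold in PCN, and edgeR called neither. Diet alone also lowered markers: Serpina1a fell 1.74-fold and Apoa1 1.32-fold in HFD against chow in the authors' deposited table. That table called 2.05% of all tested genes and 3.7% of genes kept by the filter lower. It did not list Fabp1, and edgeR called neither marker. None of the 6 was called in vehicle against HFD, by edgeR or in the deposited table, or in vehicle against chow, where Fabp1 fell. None was called in PCN against vehicle either, where Fabp1 averaged 1.16 times the vehicle level. The part of these markers in the lower Fabp1 was not tested.

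Neither the drug within the injected groups nor the diet within the uninjected groups gave a listed difference for Fabp1. PCN libraries averaged 1.16 times the vehicle libraries (exact permutation p = 0.6, two-sided). HFD libraries averaged 0.901 times the chow libraries (exact permutation p = 0.4, two-sided). In both pairs the libraries overlapped, and a p of this size does not show that the levels are alike.

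Fabp2, the intestinal-type carrier, was lowest in the PCN group. PCN libraries had 705, 605 and 659 normalized counts and vehicle libraries 936, 1415 and 1039. HFD libraries had 2717, 2610 and 1990 normalized counts and chow libraries 2131, 1519 and 1172. All PCN libraries lay below all others, and the HFD libraries above all vehicle libraries; chow overlapped both vehicle and HFD. Means were 656 ± 50.3 in PCN, 1130 ± 253 in vehicle, 2439 ± 393 in HFD and 1607 ± 485 in chow (SD, n = 3 each).

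Fabp2 was the only member that the authors' deposited table of PCN against vehicle listed, where 0.641% of all tested genes and 1.21% of genes kept by the expression filter were called lower. It fell 1.72-fold (DESeq2 adjusted p = 0.01647), and edgeR on the listed counts did not call it (adjusted p = 0.220; 0.378 to 0.695 with any 1 library left out). Against HFD, PCN livers had 3.72-fold less Fabp2, which fell both in the authors' deposited table (DESeq2 adjusted p = 1.09e-23) and by edgeR (adjusted p = 0.008339). The edgeR call was lost without PCN replicate 27 (adjusted p = 0.0625) and without HFD replicate 4 (adjusted p = 0.0622).

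Against chow, PCN livers had 2.45-fold less Fabp2, and it fell in the authors' deposited table (DESeq2 adjusted p = 8.06e-08) and by edgeR (adjusted p = 0.0236). That edgeR call held without chow replicate 19 (adjusted p = 0.0337) and was lost without any 1 of PCN replicates 5, 11 and 27 and chow replicates 8 and 17 (adjusted p = 0.0520 to 0.0885). Between vehicle and HFD, Fabp2 was 2.16-fold lower in vehicle (edgeR log2 -1.11, SE 0.19, adjusted p = 0.145), and the authors' deposited table called it (DESeq2 adjusted p = 0.0002205). Diet alone gave 1.52 times the chow level in HFD (exact permutation p = 0.2), with overlapping libraries.

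Because both genes were read in each library, their ratio does not depend on scaling. Counts of Fabp1 were 57.7 ± 19.9 times those of Fabp2 in PCN livers, 29.1 ± 6.1 times in vehicle livers, 24.1 ± 3.2 times in HFD livers and 41.4 ± 6.9 times in chow livers (SD, n = 3 each). PCN libraries ranged from 37.5 to 77.4 and did not overlap the vehicle libraries, at 24.8 to 36.1, or the HFD libraries, at 21.7 to 27.7, but overlapped the chow libraries, at 33.5 to 46.5. Intestinal epithelium markers were near 0: of 5 genes only Vil1 and Lct were in the complete table, with a summed level of at most 2.89 normalized counts in any of the 6 libraries.

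Fabp4, the adipocyte and macrophage form, was highest in the HFD group. PCN libraries had 141, 106 and 128 normalized counts, vehicle libraries 134, 158 and 82.0, HFD libraries 291, 272 and 369, and chow libraries 118, 59.9 and 68.8. Every HFD library was above every library of the other groups, and those overlapped one another. Means were 125 ± 17.6 in PCN, 125 ± 38.7 in vehicle, 311 ± 51.4 in HFD and 82.3 ± 31.5 in chow (SD, n = 3 each).

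With diet alone Fabp4 rose 3.77-fold in HFD over chow in the authors' deposited table (DESeq2 adjusted p = 1.16e-09) and by edgeR (adjusted p = 0.0414). It and Cd36 were the 2 of the 5 members called, where 2.81% of all tested genes and 5.1% of genes kept by the filter were called higher. The edgeR call of Fabp4 held without chow replicate 8 (adjusted p = 0.0245) and was lost without any 1 of the HFD replicates 4, 30 and 38 and chow replicates 17 and 19 (adjusted p = 0.0740 to 0.185). Against HFD, PCN livers had 2.48-fold less Fabp4, which fell in the authors' deposited table (DESeq2 adjusted p = 6.43e-07) and by edgeR (adjusted p = 0.0348). Leaving out any 1 of PCN replicates 5, 11 and 27 and HFD replicates 4, 30 and 38 lost that edgeR call (adjusted p = 0.0568 to 0.155).

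Between vehicle and HFD, Fabp4 was 2.49-fold lower in vehicle (edgeR log2 -1.32, SE 0.25, adjusted p = 0.160), and the authors' deposited table called it (DESeq2 adjusted p = 0.0009998). PCN and vehicle livers had a ratio of 1.01, with an exact permutation p of 0.9. Over chow, the PCN mean was 1.52-fold and the vehicle mean 1.51-fold, with overlapping libraries (exact permutation p = 0.2 for each).

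Fabp5, the epidermal-type carrier and the genomic neighbour of Fabp4, was the least abundant member. Vehicle libraries had 59.7, 38.4 and 71.6 normalized counts and HFD libraries 67.3, 62.3 and 183, from 38 to 133 raw counts each. The groups overlapped, and HFD replicate 38 stood far above the other 5 libraries. The mean was 56.6 ± 16.8 in vehicle and 104 ± 68.5 in HFD (SD, n = 3 each), 1.84-fold lower in vehicle (edgeR log2 -0.83, SE 0.47, adjusted p = 0.498). Without HFD replicate 38 the ratio was 1.15-fold.

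Cd36, the membrane transporter, was highest in the HFD group. PCN libraries had 4640, 3317 and 4635 normalized counts and vehicle libraries 2790, 6530 and 3214. HFD libraries had 8017, 6902 and 6829 normalized counts and chow libraries 4431, 3104 and 1408. All HFD libraries lay above all others, and vehicle replicate 23, at 6530, was close to them. Means were 4197 ± 762 in PCN, 4178 ± 2048 in vehicle, 7249 ± 666 in HFD and 2981 ± 1515 in chow (SD, n = 3 each).

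Cd36 rose 2.43-fold in HFD over chow in the authors' deposited table (DESeq2 adjusted p = 0.003122), and edgeR on the listed counts did not call it (adjusted p = 0.209). Against HFD, PCN livers had 1.73-fold less Cd36, which fell in the authors' deposited table (DESeq2 adjusted p = 0.001038) and was not called by edgeR (adjusted p = 0.124). Fabp2, Fabp4 and Cd36 were thus the 3 of the 5 members called in PCN against HFD. There 1.25% of all tested genes and 2.3% of genes kept by the filter were called lower. Vehicle livers had 1.74-fold less Cd36 than HFD livers (edgeR log2 -0.80, SE 0.30, adjusted p = 0.359), and the deposited table did not call it either (DESeq2 adjusted p = 0.355). Without vehicle replicate 23 that difference was 2.41-fold.

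For a reported target of the receptor that PCN activates, Cd36 gave a PCN to vehicle ratio of 1.01 (exact permutation p = 0.8). The vehicle spread was wide, from 2790 to 6530, so a modest difference was not detectable with these libraries. Over chow, the PCN mean was 1.41-fold and the vehicle mean 1.40-fold (exact permutation p = 0.2 and 0.5), with overlapping libraries.

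In vehicle against HFD, where every gene was measured, all 5 members had a lower mean in vehicle and edgeR called 0 of them. It called 0.00726% of 13775 genes, 1 gene in all, while 12.5% had an unadjusted p under 0.05, as did Fabp1, Fabp2, Fabp4 and Cd36. The deposited DESeq2 test called 3 members, Fabp1, Fabp2 and Fabp4, against 0.511% of all tested genes and 0.966% of genes kept by the filter called lower. A DESeq2 fit to the deposited counts called the same 3 (0.504% of genes called lower), and edgeR without a filter called Fabp2 and Fabp4 (0.715%). Libraries did not overlap for 4 of the 5 members, against 9.99% of the 13775 genes lower without overlap. The vehicle, the injection and any handling that came with it cannot be told apart in this comparison. In the comparison of PCN with HFD the drug and the injection cannot be told apart.

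**Figure D2:**
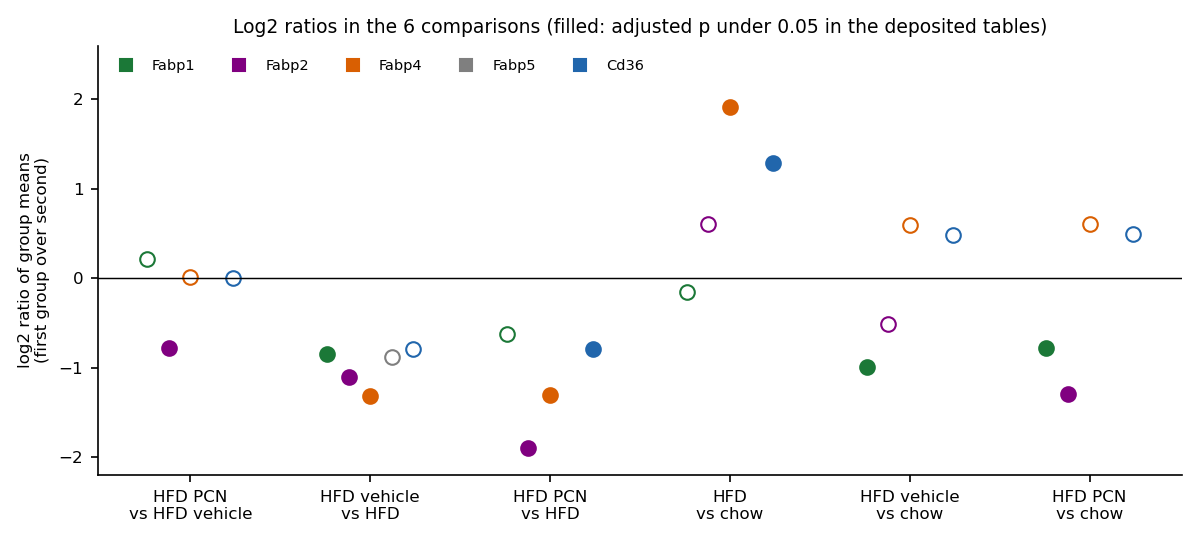
Log2 ratio of group means of normalized counts for each member in the 6 comparisons, first-named group over second; filled symbols mark a deposited DESeq2 adjusted p under 0.05. In the PCN and vehicle comparison Fabp2 alone is filled, and the largest values are Fabp4 in HFD over chow (1.92) and Fabp2 in PCN over HFD (-1.89).

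Levels per transcript length could be set side by side in the vehicle and HFD libraries, as TPM, the counts per transcript length scaled to the same total in each library. Fabp1 had 5529, 6152 and 3781 TPM in vehicle libraries and 11474, 9571 and 11109 TPM in HFD libraries, which placed it 22nd, 17th and 27th among all genes in vehicle and 8th, 10th and 9th in HFD. Cd36 had 109 ± 57.6 TPM in vehicle and 218 ± 26.0 TPM in HFD, and Fabp2 103 ± 26.7 TPM in vehicle and 257 ± 28.8 TPM in HFD (SD, n = 3 each). These levels of Cd36 and Fabp2 overlapped within each group. Fabp4 followed, with 12.3 ± 4.4 TPM in vehicle and 35.8 ± 9.1 TPM in HFD, and Fabp5 came last, with 4.97 ± 1.2 TPM in vehicle and 11.2 ± 8.3 TPM in HFD. The order was thus the same in both groups apart from Cd36 and Fabp2.

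**Figure D3:**
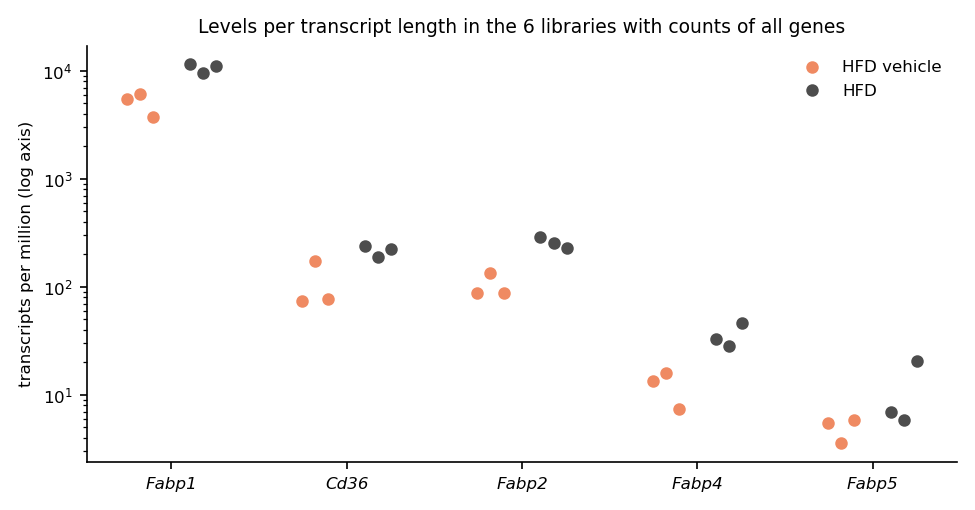
Level of each member per transcript length, in TPM on a log axis, in the 3 vehicle and 3 HFD libraries (1 point each). Fabp1 lies far above the others at 3781 to 11474, Cd36 and Fabp2 overlap, and Fabp5 is lowest.

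Cells other than hepatocytes express Fabp4, Fabp5 and Cd36, so their markers were read beside these genes. Of 8 adipocyte markers 7 were in the complete table, and their summed level, nearly all of it Car3, was 23003 to 44564 normalized counts in vehicle libraries and 40957 to 70542 in HFD libraries, with overlap. The sum thus describes Car3 and is not a measure of adipocytes. Of the 4 markers that passed the expression filter, 3 had a negative edgeR log2 ratio in vehicle against HFD. Adrb3 went the other way, 2.10-fold higher in vehicle, and was not called. Adipoq, Plin1 and Retn, the genes most typical of adipocytes on that list, had 0 to 4 raw counts in each of the 6 libraries. Cfd, which encodes the protease adipsin of adipocytes, had 3.90, 6.87 and 1.06 normalized counts in PCN libraries, 63.6, 120 and 209 in vehicle, 367, 313 and 167 in HFD and 103, 36.4 and 9.02 in chow. In the authors' deposited tables Cfd fell in PCN against vehicle (33.2-fold), HFD (71.7-fold, called by edgeR too) and chow (12.6-fold). Lipe, a lipase of lipid droplets, rose 1.44-fold in HFD over chow in the authors' deposited table and was not called by edgeR. Fabp4 had a PCN to vehicle ratio of 1.01, and the part of adipocytes in its other differences was not tested.

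The 8 endothelial markers summed to 2829 to 4347 normalized counts in vehicle libraries and 5150 to 5563 in HFD libraries, with no overlap. Of these, Lyve1 was 2.38-fold and Cdh5 1.73-fold lower in vehicle (DESeq2 adjusted p = 0.003985 and 0.01643 in the authors' deposited table), and edgeR called none of the 8. The deposited table called 0.511% of all tested genes lower. Kdr and Clec4g went the other way, 1.20-fold and 1.02-fold higher in vehicle, and were not called. The 12 macrophage markers summed to 5814 to 8680 in vehicle and 8112 to 13232 in HFD, with the highest value in HFD replicate 38, the library with the high Fabp5. Of the 12, 10 had a negative edgeR log2 ratio in vehicle against HFD. Marco went the other way, 2.68-fold higher in vehicle, and was not called. The 6 stellate cell markers summed to 2473 to 5220 in vehicle and 5002 to 7472 in HFD. The 5 platelet and red cell markers, mostly Hbb-bs, summed to 2553 to 3222 in vehicle and 4101 to 4970 in HFD, with no overlap. Hbb-bs was 1.69-fold lower in vehicle (DESeq2 adjusted p = 0.003365 in the authors' deposited table), and edgeR did not call it. Ppbp and Itga2b went the other way, 1.38-fold and 1.14-fold higher in vehicle, and were not called. The part of all these cells in the lower Fabp4 and Cd36 of vehicle livers was not tested.

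With diet, where Fabp4 and Cd36 rose, 9 of the 12 macrophage markers also rose in HFD over chow in the authors' deposited table, against 2.81% of tested genes. Adgre1 was 1.72-fold, Lyz2 1.59-fold and Trem2 4.93-fold higher in HFD, and edgeR on the listed counts called 0 of the 9. Of the 8 endothelial markers, Lyve1 rose 1.51-fold and Kdr fell 1.47-fold, and edgeR called neither (adjusted p = 0.106 and 0.108). Among stellate cell markers Col1a1 rose 8.74-fold and Col3a1 5.49-fold, which edgeR also called. The part of these cells in the higher Fabp4 and Cd36 was not tested.

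In PCN against HFD, where Fabp4 and Cd36 fell, Lyve1 was the 1 endothelial marker of 8 that the authors' deposited table called (1.66-fold lower, DESeq2 adjusted p = 0.01349), and edgeR did not call it (adjusted p = 0.1502). Col1a1 was the 1 stellate cell marker of 6 called, 2.29-fold lower, and edgeR called it too (adjusted p = 0.0471). The deposited table called 1.25% of all tested genes and 2.3% of genes kept by the filter lower. Of the 12 macrophage markers 0 were called. The part of these cells in the lower Fabp4 and Cd36 of PCN livers was not tested.

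**Figure D4:**
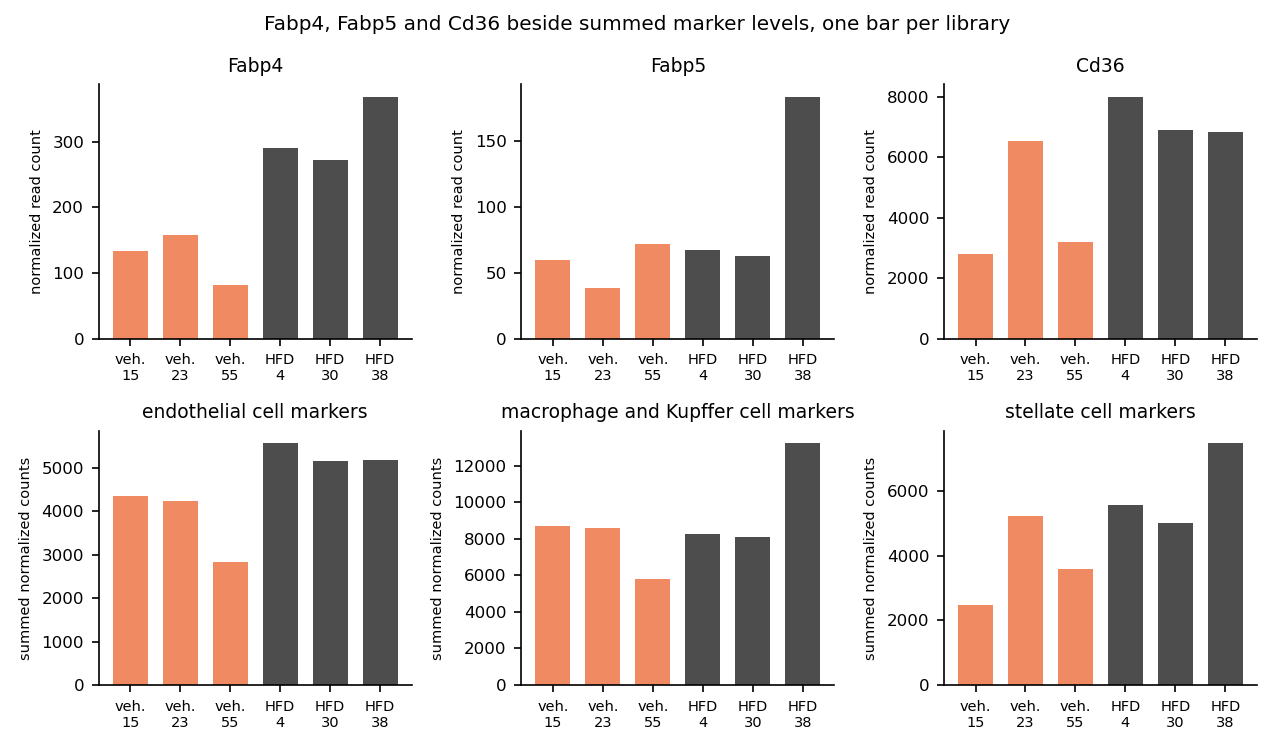
Normalized counts of Fabp4, Fabp5 and Cd36 (top) and summed normalized counts of endothelial, macrophage and stellate cell markers (bottom), 1 bar per library, vehicle left of HFD. HFD replicate 38 has the highest Fabp4, Fabp5, macrophage and stellate values, and vehicle replicate 55 the lowest Fabp4, endothelial and macrophage values.

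Fabp1 and Fabp2 were then set beside other carriers of acyl-CoA and lipids, a list of 9 genes that all passed the expression filter. Not all of these carriers are cytosolic. In PCN against vehicle 3 rose and 1 fell in the authors' deposited table, against 1.07% of tested genes called higher and 0.641% lower, and edgeR called 0 of the 4. Dbi, the acyl-CoA binding protein, rose 1.77-fold, Pctp, which transfers phosphatidylcholine, 1.80-fold and Stard4, which carries cholesterol, 1.67-fold. Scp2, which encodes sterol carrier protein 2 and sterol carrier protein X, fell 1.55-fold.

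Scp2 had 36280, 32845 and 33106 normalized counts in PCN libraries, 50034, 54051 and 54367 in vehicle, 74177, 74651 and 55671 in HFD and 75636, 73461 and 64416 in chow. Like Fabp2, it was lowest in all PCN libraries, and it fell to 34077 ± 1912 in PCN, against 68167 ± 10824 in HFD and 71171 ± 5950 in chow (SD, n = 3 each), in the authors' deposited tables. Dbi had 8009, 9243 and 6957 normalized counts in PCN, 5483, 3726 and 4444 in vehicle, 8455, 7042 and 7263 in HFD and 8572, 8288 and 8306 in chow. Its vehicle libraries were below all others, and in vehicle it fell 1.67-fold against HFD and 1.84-fold against chow in the authors' deposited tables. In the vehicle and HFD fit 8 of the 9 carriers had a negative edgeR log2 ratio, with a median of -0.21, where the median over all genes was 0.02 and 47.5% were below 0. Stard4 also rose in PCN over HFD (2.07-fold, called by edgeR too) and over chow (1.68-fold), and Scp2 fell 1.35-fold in vehicle against chow. Gm2a, a lysosomal lipid carrier, fell against chow in HFD, vehicle and PCN livers (1.52-fold, 2.07-fold and 1.46-fold). edgeR did not call Dbi in vehicle against HFD or chow (adjusted p = 0.222 and 0.0897), Scp2 in PCN against HFD or in vehicle against chow (adjusted p = 0.0874 and 1), Stard4 in PCN against chow (adjusted p = 0.0591) or Gm2a against chow (adjusted p = 0.131 in HFD, 0.1499 in vehicle and 0.255 in PCN). It called Scp2 in PCN against chow (adjusted p = 0.0262).

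**Figure D5:**
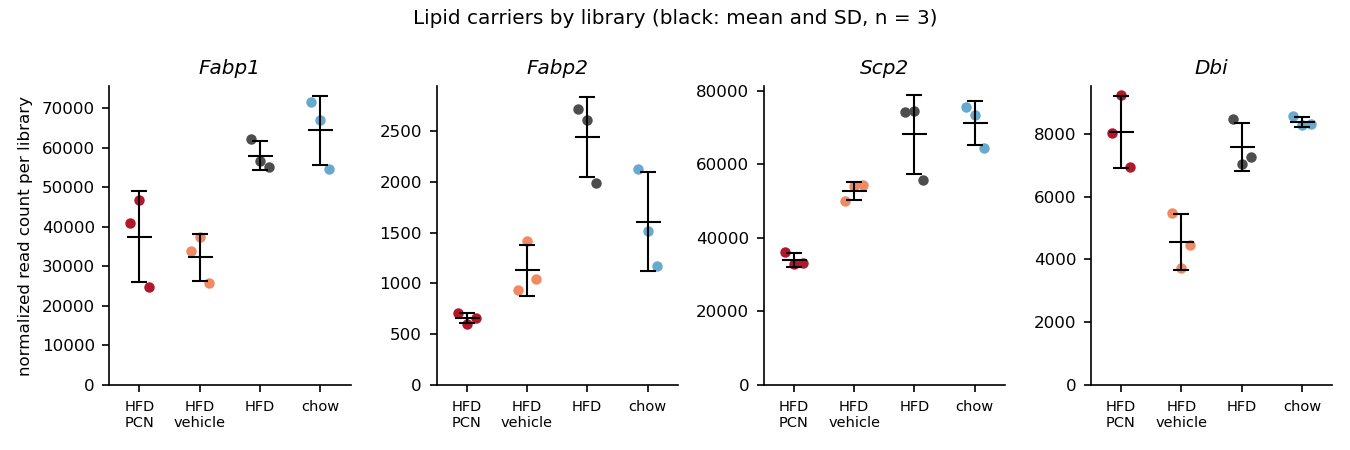
Normalized read counts of Fabp1, Fabp2, Scp2 and Dbi in each library (points) with the group mean and SD (black, n = 3). Fabp2 and Scp2 are lowest in the 3 PCN libraries, and Dbi is lowest in the 3 vehicle libraries.

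The list of fatty acid uptake and activation held 18 genes beside Cd36, of which 15 passed the expression filter. None was called in PCN against vehicle or, by either test, in vehicle against HFD, where the median edgeR log2 ratio of the 15 was -0.06. In HFD over chow 2 rose and 4 fell, against 2.81% and 2.05% of tested genes. Vldlr, a lipoprotein receptor, rose 3.12-fold and Lpl, the lipase that frees fatty acids from lipoproteins, 2.13-fold. Lipc, hepatic lipase, fell 1.91-fold, Acsl1, the main fatty acid activating enzyme of liver, 1.59-fold, the transport protein Slc27a5 1.44-fold and Acsl5 1.24-fold; of these 6 edgeR called Vldlr alone.

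Against HFD, PCN livers showed a 2.90-fold rise of Acsl3, another activating enzyme, and a 1.43-fold fall of Slc27a4, and edgeR called neither. Over chow, PCN livers showed rises of Acsl3 (3.07-fold) and Vldlr (2.84-fold) and falls of Acsl1 (2.53-fold), Lipc (1.97-fold) and Slc27a2 (1.74-fold), where 4.43% of tested genes were called higher and 3.67% lower. edgeR called Acsl3, Vldlr and Acsl1 of these. In vehicle against chow Acsl1, Acsl5 and Lipc fell (1.66-fold, 1.66-fold and 1.77-fold) in the authors' deposited table, and edgeR called none. Among 7 scavenger receptor genes related to Cd36 in kind or ligand, Scarb2 alone was called, 1.33-fold lower in PCN than in chow.

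Of 12 nuclear receptors and regulators listed as possible regulators of the members, all passed the expression filter and none was called in PCN against vehicle. Nr1i3, the constitutive androstane receptor, rose 1.55-fold in vehicle and 1.64-fold in PCN over HFD in the authors' deposited tables. Over chow it rose 1.65-fold in PCN and 1.55-fold in vehicle. Nr1i2, which encodes the pregnane X receptor, rose 1.46-fold in vehicle over chow, and Pparg rose 1.95-fold in PCN over chow. Hnf4a, a regulator of hepatocyte genes, fell 1.57-fold in PCN and 1.46-fold in HFD against chow, and Cebpa, a regulator of fat and liver genes, fell 1.32-fold in HFD. edgeR called 0 of these differences. Over chow, 2 of the 12 rose and 1 fell in PCN, where 7.64% of genes kept by the filter were called higher and 6.55% lower. In vehicle over chow 2 rose, against 3.17% called higher, and in HFD 2 fell, against 3.7% called lower. Over HFD, 1 rose in vehicle and 1 in PCN, against 0.53% and 3.37% called higher. Ppara, which encodes the receptor PPARα, was called in no comparison.

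The genes whose pattern over the libraries was nearest to each member were found by the root mean square difference of centred log2 levels, where a smaller value means more alike. Over 12 libraries and 1959 genes, Nlrp12 (0.206), Adgrf5 (0.214) and Cpeb2 (0.228) were nearest to Fabp1, and Acss3 (0.274), Chpt1 (0.326) and Tmem189 (0.360) to Fabp2. Limk1 (0.338), Tceal8 (0.347) and Anxa5 (0.361) were nearest to Fabp4, and Tmem237 (0.321), Tceal8 (0.333) and Scamp5 (0.373) to Cd36. Tceal8 was thus shared by Fabp4 and Cd36; Cd36 itself was in place 12 for Fabp4, with 0.437. For Fabp5, over the 6 vehicle and HFD libraries and 10589 genes, Dll4 (0.252) and Gbp2 (0.275) were among the nearest. Genes with counts in 12 libraries are genes that the authors called somewhere, so the pool is not a sample of all genes.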

How the data were processed

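Liver RNA of 12 samples in 4 groups was sequenced. Per the submitters' processing notes, HISAT2, HTSeq and DESeq2 were used with the build GRCm38 (mm10); their versions and settings are not given in the sources used here. Each of the 6 tables that the authors deposited compares a pair of groups and holds whole-number read counts of 6 libraries. Per the file headers, the deposited columns also give a mean of normalized counts, the log2 fold change with its standard error, the p-value and its adjusted form. Only the table of vehicle against HFD gave values for all genes. Where tables shared a gene and a library their counts matched (15768 comparisons, 0 differences).

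Size factors were recovered from the counts and the deposited means and brought to 1 scale for the 12 libraries (largest disagreement 0.517%). In R 4.3.3, edgeR 4.0.16 was fitted to the 13775 genes kept by its expression filter (filterByExpr, TMM scaling, two-sided, Benjamini-Hochberg adjustment). In the 5 incomplete tables the authors' deposited call was the main result, and edgeR on the listed counts took its size factors from the deposited means, its dispersion prior from the complete table and its number of tests from the deposited p-values (an estimated 25101 to 25880 genes). DESeq2 1.42.0 was an alternative for the complete table. Folds are ratios of group means, since the deposited log2 fold changes are moderated toward 0. TPM used the longest basic transcript of GENCODE M21. The scripts were tested on simulated data. Likeness used log2(normalized count + 1) and genes with a mean of at least 50.

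The members, lists, markers and tests were chosen with earlier results of these data known. Named genes were the 5 members, every called list gene up to 6 per list and comparison, and the 3 genes nearest to each member. Replicate numbers were not shared between groups. Fabp5 in chow and PCN was not analysed here. Some genes that the rule names are not reported here.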

Additional observations from a re-analysis of the deposited data

How the results depend on the processing

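The count of members called depended on the test. In vehicle against HFD it was 0 with edgeR, 3 with the deposited DESeq2 adjusted p, 3 with DESeq2 fitted again and 2 with edgeR without a filter (Fabp2 and Fabp4). It was 0 with RLE size factors, with edgeR's newer quasi-likelihood method (chosen after seeing the data) and without any 1 library. With edgeR on the listed counts it was 0 in PCN against vehicle (1 deposited), 0 in vehicle against chow (1 deposited), 1 in HFD against chow (2 deposited), 1 in PCN against chow (2 deposited) and 2 in PCN against HFD (3 deposited). Leaving out 1 library in that edgeR fit gave 0 in PCN against vehicle and in vehicle against chow, and 0 to 1 in PCN against HFD, HFD against chow and PCN against chow. The cause of these differences was not tested, beyond the fewer samples of the last.

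None of the called log2 ratios of the members changed sign or moved beyond the spread between replicates, with medians (12 of 12), TMM scaling (12 of 12) or a library left out (72 of 72). With 3 libraries per group, leaving 1 out can hardly move a group mean beyond that spread, so the last count does not show stability. The largest shift of a called log2 ratio with a library left out was 0.402. Of the ratios not called, group medians moved 2 of 13 beyond the spread: Fabp5 in vehicle against HFD (-0.17) and Cd36 in PCN against vehicle (0.53). A library left out moved 1 of 78, Cd36 in vehicle against HFD without vehicle replicate 23 (-1.27). Signs changed for 1, 2 and 7 of the uncalled values with medians, TMM and left-out libraries. Scaling by library totals moved the median of all genes between vehicle and HFD to -0.13, against 0.02, and all 5 members kept a lower mean in vehicle. No paired analysis was possible because the groups share no replicate numbers. Fabp5 had 38 to 133 counts per library. With 3 libraries per group a permutation test cannot go below 0.10.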
